A study of Caenorhabditis elegans with 8 samples.

Results

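Nuclear hormone receptors are transcription factors with a zinc finger DNA-binding domain and a ligand-binding domain, and many are switched by lipids, sterols or other small molecules. *C. elegans* has a far larger family than flies or vertebrates, most of it an expansion related to the vertebrate receptor HNF4, together with a small set of receptors that have counterparts in other animals. In worms they are known for fat and sterol metabolism, responses to toxins and hypoxia, molting, and the development of the epidermis, muscle and neurons. The genes described here are those whose symbol is *nhr-* and a number, except *nhr-25*. They were found by matching the RefSeq identifiers in the counts to a RefSeq gene table. This gave 373 transcripts of 254 genes, out of 50606 transcripts counted, of which 45715 had a symbol.

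The transcripts were measured by RNA-seq in whole embryos of *ztf-11* KD animals and of animals fed with the control vector L4440, with 4 libraries from independent cultures of each. ZTF-11 is the Myt1-type zinc finger factor of *C. elegans*, and the study compared these libraries to find the genes whose transcripts change when it is depleted. Both groups were of strain TV23837, which carries a GFP-tagged *ztf-11* allele, an *eri-1* mutation that makes animals sensitive to RNAi, and the transgenes oxIs322 and ynIs49. The mothers fed on the RNAi bacteria from the first larval stage for 64 hr at 20 °C, and their eggs were kept in M9 for 3 hr before RNA was made. The embryos hold all tissues, so fewer cells of a type and less RNA per cell cannot be told apart.

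Library totals ranged between 39343105 and 44933700 counts in the knockdown and between 39494873 and 45609675 in the controls, and CPM below are counts scaled to the TMM-adjusted library size. Where 4 values are listed for a condition, they are replicates 1 to 4 in that order. The knockdown itself was visible in every library. *ztf-11* stood at 9.42, 10.96, 14.7 and 9.98 CPM in the knockdown, against 36.6, 68.4, 31.2 and 40.9 CPM in the controls (log2 fold change -1.97, standard error 0.27, adjusted p = 0.262 in edgeR's quasi-likelihood test). Control replicate 2 stood apart from the other libraries in genes of embryonic age, and values without it are given where it changes a result.

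Detection differed with the number of transcripts counted for a gene. Of the 373 *nhr* transcripts, 153 (41.0%) passed the filter on low counts and were tested, against 28.3% of all transcripts, and these 153 belong to 152 genes. The other 220 were left out, and 136 of them had 0 counts in all 8 libraries. Of the 182 transcripts that are the only one counted for their gene, 130 (71.4%) were tested. Of the 191 transcripts of the 72 genes with several counted transcripts, 23 (12%) were tested and 125 had 0 counts in all libraries. Over all named transcripts the same shares were 29.7% and 18.5%. For 50 of these 72 genes no transcript could be tested.

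**Figure D1:**
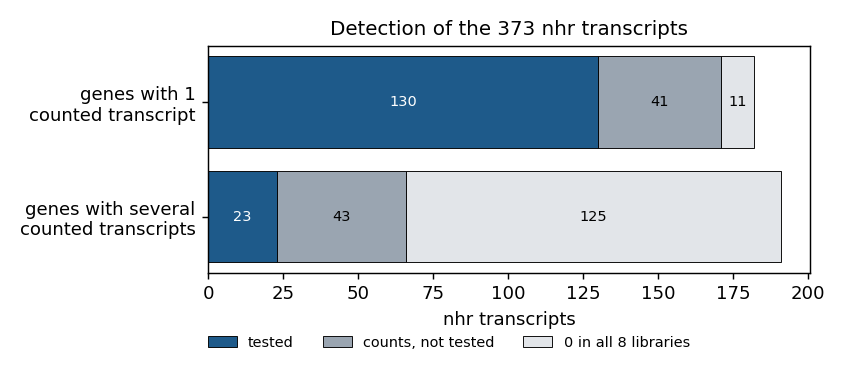
Number of nhr transcripts (x axis) of genes with 1 counted transcript and of genes with several, split into those tested, those with counts but not tested, and those with 0 counts in all 8 libraries. Of the upper row 130 of 182 were tested and of the lower row 23 of 191.

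Several well-known receptors had 0 or nearly 0 counts. *nhr-49*, the regulator of fat desaturation and fasting metabolism, had 3 counted transcripts and 1 count in all 8 libraries together. *nhr-80*, its partner in the control of fatty acid desaturases, and *nhr-8*, a receptor of sterol and toxin metabolism, each had 2 transcripts with 0 counts. *nhr-66*, another partner of *nhr-49*, had 7 transcripts with 0 counts. *nhr-23*, a receptor of the epidermis and of molting, had 4 transcripts, of which NM_001025804 held all the counts, at 0.153, 0.188, 0.400 and 0.288 CPM in the knockdown, against 0.218, 0.403, 0.111 and 0.198 CPM in the controls. How reads over several transcripts of a gene were treated is not given in the sources used here, so nothing about the level of these genes is drawn from such values. Of the 11 genes with 1 counted transcript and 0 counts, 4 have several transcripts in the current RefSeq table.

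Among the receptors that could be measured the levels covered a wide range. Per kilobase of exon, with all transcripts of a gene summed, 61 genes reached 10 CPM in the knockdown and 59 in the controls, and 120 genes reached 1 CPM per kilobase in each condition. These levels are relative to the TMM-scaled total of genes with a symbol only, so they are on a scale 1.13 to 1.15 times that of the CPM elsewhere. *nhr-3* was the most abundant, at 263 ± 31.8 CPM per kilobase in the knockdown and 213 ± 51.4 in the controls (SD, n = 4 each). *nhr-57*, a gene known to be induced by the hypoxia factor HIF-1, followed at 145 ± 12.6 in the knockdown and 107 ± 19.2 CPM per kilobase in the controls. *nhr-2*, a receptor known from early embryos, stood at 61.2 ± 9.29 in the knockdown and 103 ± 61.1 CPM per kilobase in the controls. A single control library was far above the others for *nhr-2*. *nhr-69*, *nhr-20*, *nhr-47*, *nhr-70* and *nhr-10* lay between 57.2 and 65.4 CPM per kilobase in the knockdown and between 55.5 and 64.2 in the controls, and neighbours in the order of the controls differed by less than the sum of their SDs. All *nhr* transcripts together took 0.338% to 0.354% of the counts of a *ztf-11* KD library and 0.274% to 0.339% of those of a control library, the lowest share being that of control replicate 2.

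No *nhr* transcript passed the threshold, an edgeR quasi-likelihood p of under 0.1 after Benjamini-Hochberg adjustment. Of the 153 tested, 0 were called, and of all 14328 transcripts tested 0 were called as well (0.0% in either direction). The smallest adjusted p of an *nhr* transcript in edgeR was 0.359. At an unadjusted p under 0.05, 10 *nhr* transcripts (6.54%) were higher and 0 lower in *ztf-11* KD embryos, where 8.8% of all transcripts tested were higher and 3.99% lower. The order of the shares of higher transcripts depended on the fit: without control replicate 2 they were 6.1% of the *nhr* transcripts and 5.88% of all, and with a replicate block 4.58% and 3.8%. With libraries scaled by their totals alone the split was 8 higher and 1 lower for the *nhr* transcripts, and 994 higher and 873 lower over all transcripts, against 1261 and 571 with TMM. DESeq2, the tool the study used, gave 186 *nhr* transcripts an adjusted p and called 3 of them higher and 0 lower (1.61%), where 2.45% of 16066 transcripts were called higher and 0.311% lower. With single libraries left out, the number DESeq2 called was 0 without *ztf-11* KD replicate 1, 2 or 4 or control replicate 4, 2 without control replicate 2, 3 without control replicate 1, 5 without *ztf-11* KD replicate 3 and 8 without control replicate 3. Calls over all transcripts moved in the same fits. The 8 were 4.21% of the *nhr* transcripts with an adjusted p, where 10.2% of all were called, and the 5 were 3.16%, where 7.78% of all were called. The 3 were 1.97% against 2.22%, the 2 were 1.08% against 2.16%, and in the fits with 0 *nhr* transcripts 0.454% to 0.812% of all were called.

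The 3 transcripts DESeq2 called were *nhr-170*, *nhr-63* and *nhr-178*. *nhr-170* (NM_075272) stood at 27.1, 29.8, 25.2 and 32.9 CPM in the knockdown, against 20.2, 14.3, 17.8 and 17.2 CPM in the controls. No control library reached the lowest knockdown library (two-sided exact permutation test, unadjusted p = 0.0286, the smallest that 4 libraries against 4 allow). This p restates that the groups do not overlap, for a transcript picked from the same data. Of all transcripts tested, 3.61% lay above the controls in this way and 2.46% below. Its log2 fold change was 0.73 (standard error 0.17, adjusted p = 0.359 in edgeR's quasi-likelihood test, adjusted p = 0.0293 in DESeq2), and it stayed between 0.63 and 0.81 with each library left out in turn. *nhr-63* (NM_171557) had the larger difference. It stood at 51.9, 50.0, 37.4 and 54.2 CPM in the knockdown, against 26.1, 15.4, 33.6 and 27.1 CPM in the controls. Again the groups did not overlap, though *ztf-11* KD replicate 3 and control replicate 3 came close to each other. The log2 fold change was 0.92 (standard error 0.23, adjusted p = 0.359 in edgeR and 0.0383 in DESeq2) and 0.73 without control replicate 2.

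*nhr-178* (NM_071053) stood at 7.78, 8.96, 5.47 and 9.59 CPM in the knockdown, against 3.41, 1.83, 5.89 and 2.96 CPM in the controls. Here *ztf-11* KD replicate 3 was below control replicate 3, so the groups overlapped (p = 0.0571 in a two-sided exact permutation test). Its log2 fold change was 1.17 (standard error 0.36, adjusted p = 0.376 in edgeR and 0.0697 in DESeq2) and 0.95 without control replicate 2. Both *nhr-170* and *nhr-63* were also called by DESeq2 when control replicate 1, 2 or 3 or *ztf-11* KD replicate 3 was left out, and by none of the other fits that leave out a library. *nhr-178* was called, among these fits, only when replicate 3 of either condition was left out. All 3 genes lie on chromosome V, as do 104 of the 153 *nhr* transcripts tested.

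The hypoxia-induced *nhr-57* (NM_071752) also separated the conditions, at a far higher level. It stood at 226, 189, 196 and 189 CPM in the knockdown, against 178, 118, 152 and 137 CPM in the controls. No control library reached any *ztf-11* KD library, and the log2 fold change was 0.45 (standard error 0.14, adjusted p = 0.380 in edgeR, 0.252 in DESeq2) and 0.35 without control replicate 2. *nhr-136* (NM_073638) stood at 21.6, 20.0, 21.6 and 22.9 CPM in the knockdown, against 16.5, 10.0, 16.2 and 14.5 CPM in the controls, a log2 difference of 0.59 (standard error 0.19, adjusted p = 0.381 in edgeR). The *ztf-11* KD libraries were close to each other and all above the controls, of which replicate 2 was the lowest. Without control replicate 2 the difference was 0.44.

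**Figure D2:**
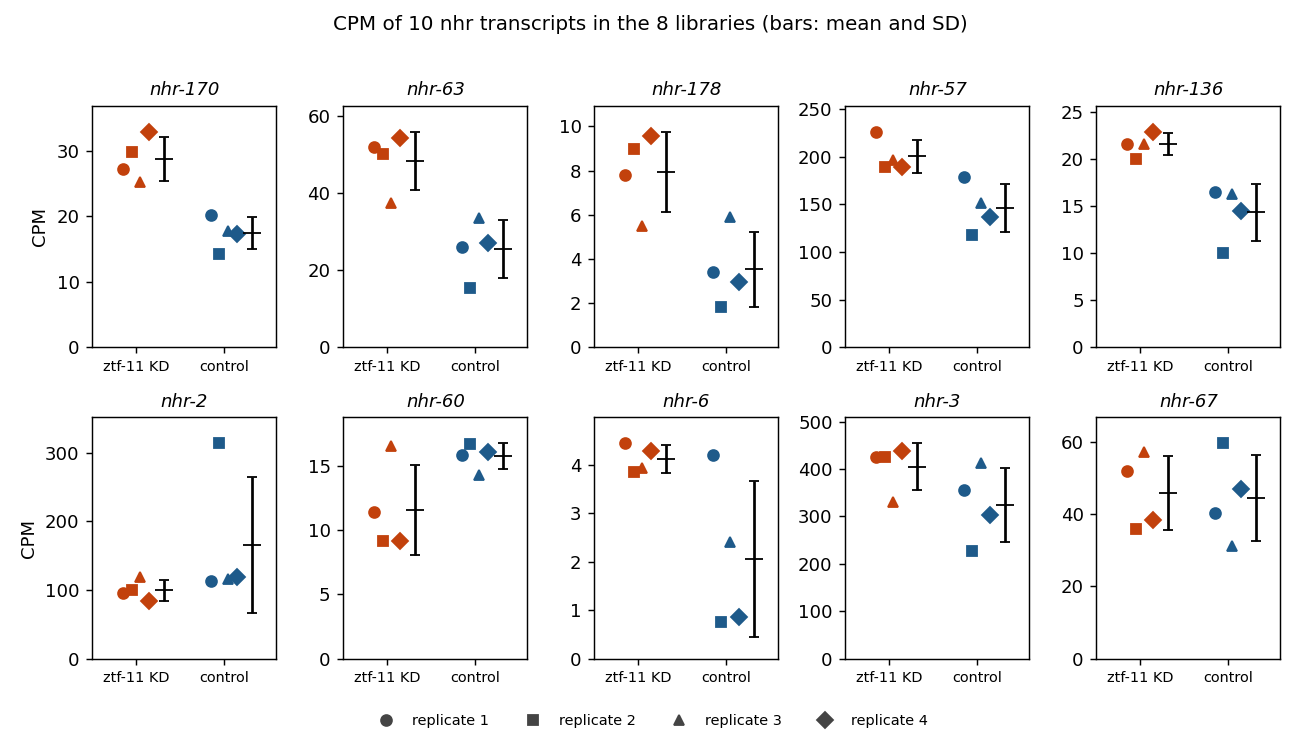
CPM (y axis, from 0) of 10 nhr transcripts in the 4 ztf-11 KD and the 4 control libraries, with a symbol for each replicate number and black bars for mean and SD. The groups do not overlap for nhr-170, nhr-63, nhr-57 and nhr-136, while for nhr-2 control replicate 2, at 313 CPM, stands far above the other libraries.

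The other transcripts with an unadjusted p under 0.05 were *nhr-180*, *nhr-100*, *nhr-36*, *nhr-195* and *nhr-281*, which fall outside the rule for naming genes and are named here after their values were seen. Their log2 fold changes were 0.56 for *nhr-180*, 0.36 for *nhr-100*, 0.55 for *nhr-36*, 1.01 for *nhr-195* and 1.04 for *nhr-281*. *nhr-281* had a mean of only 30.5 counts per library.

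For 11 *nhr* transcripts (7.19%) the whole knockdown range was above the whole control range, and for 0 all lay below, where 3.61% of all transcripts tested lay above and 2.46% below. Beside *nhr-170*, *nhr-63*, *nhr-57* and *nhr-136* these were *nhr-36*, *nhr-100*, *nhr-195*, *nhr-281*, *nhr-168*, *nhr-70* and *nhr-122*. The smallest of these differences were in abundant receptors. *nhr-122* stood at 54.2, 50.5, 53.3 and 47.7 CPM in the knockdown, against 45.9, 45.1, 46.3 and 45.2 CPM in the controls, and its log2 fold change was 0.17. *nhr-70* averaged 80.3 ± 2.14 CPM in the knockdown and 72.8 ± 3.67 CPM in the controls (SD, n = 4 each). The difference was 0.14 on the log2 scale. Scaled by library totals alone 7 lay above and 0 below, and over all transcripts 399 above and 508 below, against 517 and 352 with TMM. Without control replicate 2 it was 10 above and 2 below of 164, and over all 14801 transcripts 600 and 636. With 1 library fewer, separation is easier. Without *ztf-11* KD replicate 3, 24 of 162 *nhr* transcripts lay above and 4 below, and 1957 and 1281 of all 14866. Without *ztf-11* KD replicate 4 it was 17 and 2 of 163, and 626 and 697 of 14600. Without control replicate 1 it was 20 and 1 of 165, and 872 and 755 of 14722. Without control replicate 3 it was 18 and 1 of 158, and 1295 and 853 of 14605. Leaving out *ztf-11* KD replicate 1 gave 13 and 1 of 166, and 627 and 491 of 14822. Leaving out *ztf-11* KD replicate 2 gave 12 and 1 of 163, and 595 and 452 of 14734. Leaving out control replicate 4 gave 12 and 1 of 166, and 648 and 513 of 14855.

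As a group the measured receptors leaned upwards by a small amount. The median log2 fold change of the 153 was 0.14, with quartiles of -0.06 and 0.34, where the median over all 14328 was -0.01, with quartiles of -0.28 and 0.38. In *ztf-11* KD embryos 106 of the 153 (69.3%) were above 0 and 47 below, against 49.2% above 0 over all transcripts. Of the 153, 104 lie on chromosome V, where their median was 0.17 and that of all transcripts 0.11, so the gap to all transcripts was smaller there. The lean was in the abundant receptors. Of the 64 with a mean of 10 CPM or more, 53 (82.8%) were above 0, with a median of 0.18, where 41.6% of the 7397 transcripts at this level were above 0, with a median of -0.07. Of the 57 between 1 and 10 CPM, 37 (64.9%) were above 0, against 59.1% of all transcripts at that level. Of the 32 under 1 CPM, 16 (50.0%) were above 0, against 54.5%. No receptor of 10 CPM or more had a change of 2-fold or larger, and those that did, 4 under 1 CPM and 3 between 1 and 10 CPM, were the rare ones. This is a description and not a test, since the transcripts vary together.

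**Figure D3:**
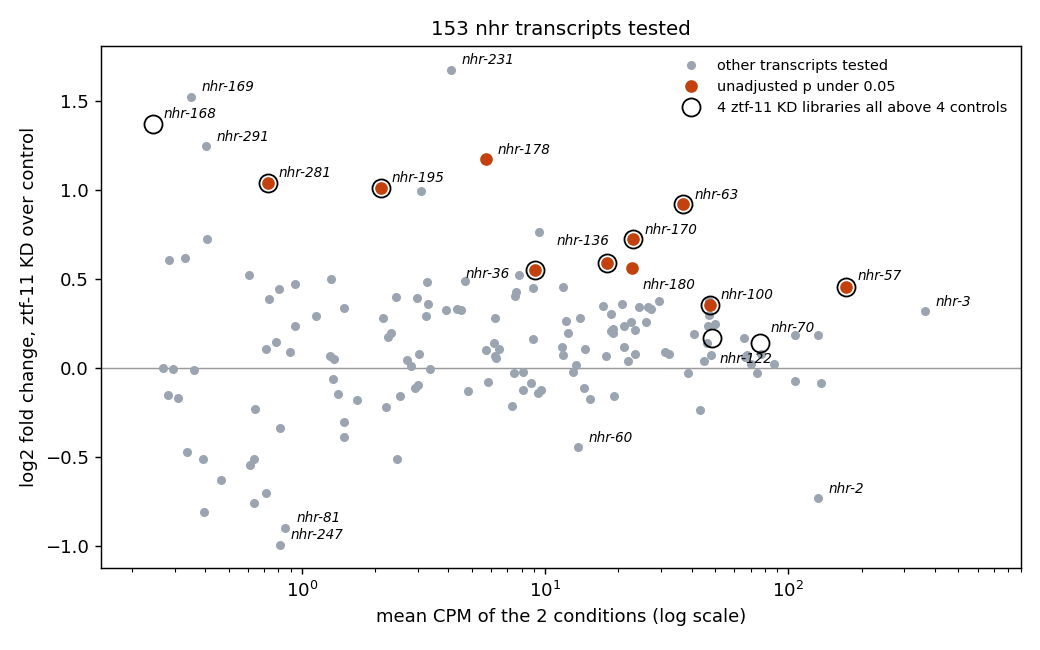
Log2 fold change of ztf-11 KD over control (y axis) against the mean CPM of both conditions (x axis, log scale) for the 153 nhr transcripts tested. Filled orange points have an unadjusted p under 0.05, rings mark the 11 transcripts whose groups do not overlap, and most points to the right of 10 CPM lie above 0.

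Part of this lean came with 1 control library. Control replicate 2 was the lowest of the controls for 80 of the 153 *nhr* transcripts (52.3%), against 39.8% of all transcripts, and the highest for 24 (15.7%), against 36.0%. Without it the median of the *nhr* transcripts was 0.09, with 62.2% above 0, where the median over all transcripts was -0.01, with 49.1% above 0. Of the 64 receptors of 10 CPM or more, 44 (68.8%) were then above 0, with a median of 0.10, against 43.9% and -0.03 over all transcripts at this level. The library medians show the same order, measured as each transcript's log2 deviation from its mean over the 8 libraries. They were 0.12, 0.08, 0.04 and 0.16 in *ztf-11* KD replicates 1 to 4, against 0.05, -0.31, -0.01 and -0.09 in control replicates 1 to 4. Control replicate 1 lay above *ztf-11* KD replicate 3.

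The summed levels of early embryo markers were highest in control replicate 2. That of genes of differentiated tissue was higher in all *ztf-11* KD libraries, through its myosin genes. Not every early marker followed, as *skn-1* was lowest in control replicate 2, at 48.4 CPM. Of 12 maternal and early embryonic genes 11 were matched, and their summed level was 391 to 594 CPM in *ztf-11* KD libraries, against 451 to 564 CPM in control replicates 1, 3 and 4 and 1140 CPM in control replicate 2. *mex-3*, with 2 counted transcripts, had counts near 0 among these, which are not read as its level. The 9 transient genes of gastrulation, such as the endoderm factors *end-1* and *end-3*, added up to 72.3 to 96.0 CPM in *ztf-11* KD libraries, against 90.1 to 109 CPM in control replicates 1, 3 and 4 and 229 CPM in control replicate 2. Of these 9, 0 had a log2 fold change above 0 and 9 below, with a median of -0.68, and without control replicate 2 1 was above and 8 below, with a median of -0.19. The median of the 10 maternal genes tested was -0.44, and -0.001 without control replicate 2. The 12 genes of differentiated muscle, pharynx, intestine and epidermis added up to 9487 to 12230 CPM in *ztf-11* KD libraries, against 6635 to 8379 CPM in control libraries. The epidermal *noah-2*, a large part of this sum, stood at 3331, 2862, 4276 and 2208 CPM in the knockdown, against 3285, 3474, 2291 and 3669 CPM in the controls. The study reports sarcomere genes as upregulated by the knockdown in these same libraries. Age and knockdown therefore cannot be told apart in this sum. *hlh-1* and *noah-1*, each with several counted transcripts, had counts near 0, which are not read as their levels. Of the 10 tested, 7 were above 0 and 5 had an unadjusted p under 0.05, the myosin genes *unc-54*, *myo-1*, *myo-2* and *myo-3* and the intestinal filament gene *ifb-2*. DESeq2 called 3 of them, *myo-1* (adjusted p = 0.0279), *myo-2* (0.0558) and *unc-54* (0.0707). The epidermal genes *dpy-7* (log2 fold change -0.03), *noah-2* (-0.005) and *sqt-3* (0.17), the intestinal *elt-2* (-0.004) and the pharyngeal *pha-4* (0.07) had an unadjusted p above 0.05. The body muscle myosin gene *unc-54* was at 2513, 3815, 1587 and 3736 CPM in the knockdown, against 1520, 923, 1871 and 1448 CPM in the controls, with *ztf-11* KD replicate 3 inside the control range. The median of the 10 was 0.45, and 0.30 without control replicate 2. Adult genes had few counts: *vit-2* and *vit-6* had 0, and the 5 genes matched added up to 0.204 to 0.825 CPM in *ztf-11* KD and 0.961 to 1.19 CPM in control libraries. *vit-3* was not matched and *vit-6* has 2 counted transcripts, so the absence of adult RNA cannot be read from these counts. The part of embryonic age in the differences of the receptors was not tested, beyond the values given without control replicate 2.

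**Figure D4:**
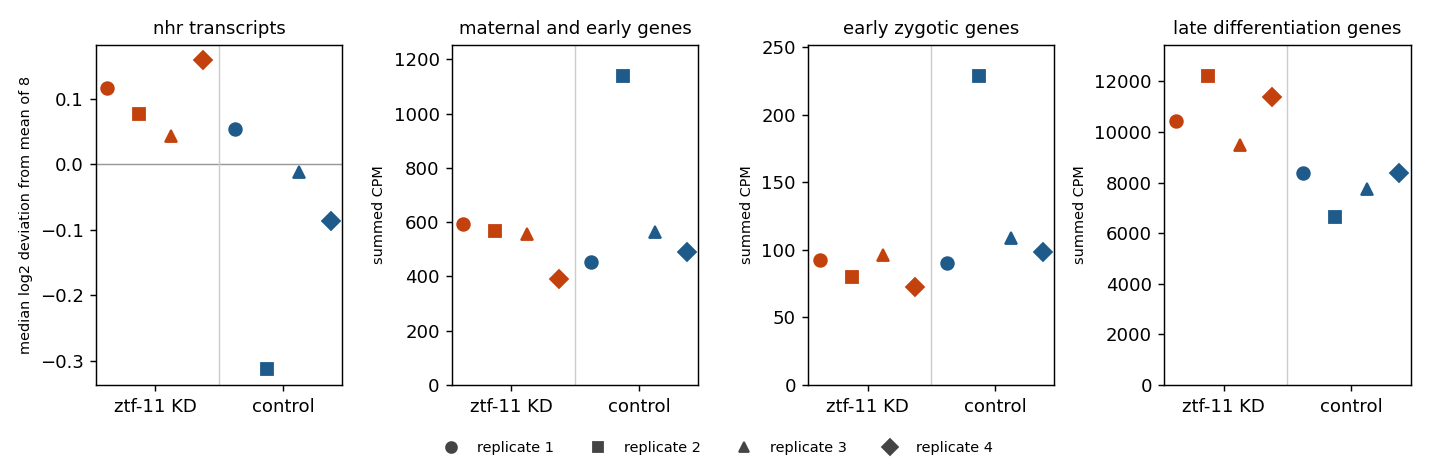
Values of each library (points, ztf-11 KD left and control right, with a symbol for each replicate number): the median log2 deviation of the 153 nhr transcripts from their mean over 8 libraries, and the summed CPM of maternal, early zygotic and late differentiation genes. Control replicate 2 is lowest for the nhr transcripts, at -0.31, and highest for the early genes, at 1140 and 229 CPM. The late sum is higher in ztf-11 KD through its myosin genes.

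Receptors known from the development of the embryo, epidermis and muscle were mostly lower in sign, and none passed the test. Of 8 on this list, 4 were tested, 1 had a log2 fold change above 0 and 3 below, 0 passed at an unadjusted p under 0.05, and the median was -0.59, and -0.33 without control replicate 2. *nhr-2* (NM_059288) stood at 95.1, 100, 119 and 83.4 CPM in the knockdown, against 113, 313, 116 and 119 CPM in the controls. The other 3 control libraries lay between 113 and 119 CPM, and *ztf-11* KD replicate 3 was level with them. The log2 fold change was -0.73 (standard error 0.33, adjusted p = 0.395 in edgeR's quasi-likelihood test) and only -0.23 without control replicate 2, the library with the highest summed level of early genes. DESeq2 called it lower without control replicate 3 (adjusted p = 0.0986). *nhr-60*, which is needed in seam cells, stood at 11.4, 9.12, 16.5 and 9.14 CPM in the knockdown, against 15.8, 16.7, 14.3 and 16.0 CPM in the controls. Its 3 lower *ztf-11* KD libraries were all below the controls and replicate 3 was among them (log2 fold change -0.45, standard error 0.22, adjusted p = 0.411 in edgeR). DESeq2 called *nhr-60* lower without *ztf-11* KD replicate 3 (log2 fold change -0.70, adjusted p = 0.0407), and not with all libraries.

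*nhr-81*, whose promoter drives expression in seam cells, was rare. It stood at 0.128, 0.518, 0.275 and 1.46 CPM in the knockdown, against 0.546, 1.59, 1.46 and 0.865 CPM in the controls (log2 fold change -0.90, standard error 0.73). It ranged from -1.84 to -0.57 with single libraries left out. The lowest value was that without *ztf-11* KD replicate 4. *nhr-67*, the counterpart of fly tailless, which acts in neurons and the uterus, stood at 51.8, 35.9, 57.0 and 38.3 CPM in the knockdown, against 40.4, 59.5, 31.3 and 46.9 CPM in the controls. Both groups spread over the same range, and the log2 fold change was 0.04 (standard error 0.23). *nhr-73* and *nhr-74*, which are neighbours, *nhr-23* and *nhr-40*, a receptor of muscle development, could not be tested, and *nhr-40* had 0 counts in all libraries.

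Among 10 receptors with counterparts in other animals, 9 were matched and 7 tested. Of these 5 had a log2 fold change above 0 and 2 below, with 0 at an unadjusted p under 0.05 and a median of 0.04, and without control replicate 2 of 0.01 with 4 above and 3 below. The largest difference was that of *nhr-6*, the counterpart of the vertebrate NR4A receptors. It stood at 4.44, 3.84, 3.92 and 4.27 CPM in the knockdown, against 4.19, 0.759, 2.42 and 0.865 CPM in the controls. The *ztf-11* KD libraries were nearly equal and control replicate 1 was among them, while the other controls were lower (log2 fold change 1.00, standard error 0.51, adjusted p = 0.414 in edgeR). Without control replicate 2, the lowest control, the difference was 0.71. Without control replicate 1 it was 1.61, and DESeq2 then called *nhr-6* (adjusted p = 0.0453). *nhr-91*, the counterpart of vertebrate GCNF, differed by 0.17 on the log2 scale (standard error 0.19) and *nhr-41*, the counterpart of fly DHR78, by 0.09 (standard error 0.22). *nhr-85*, related to vertebrate Rev-Erb, *nhr-111* and *nhr-239* had log2 fold changes of -0.12, -0.18 and 0.04, each smaller than its standard error.

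Few receptors of metabolism were tested: 3 of 9 listed for fat and sterols, 2 of 3 for propionate and vitamin B12 and 2 of 7 for toxins, metals and stress. Among these only *nhr-57*, given above, had an unadjusted p under 0.05. Not tested were *nhr-64*, at 0, 0, 1 and 1 counts in the knockdown against 1, 11, 12 and 10 in the controls, and *nhr-13*, at 7, 0, 4 and 0 against 3, 24, 10 and 14. Both have several counted transcripts, and their most counted one is given. *nhr-10*, which acts in the propionate shunt, stood at 76.2, 76.0, 83.4 and 80.8 CPM in the knockdown, against 75.2, 81.2, 69.1 and 73.9 CPM in the controls. The groups overlapped and the log2 fold change was 0.08 (standard error 0.11). *nhr-69*, which is close to HNF4, averaged 73.6 ± 3.18 CPM in the knockdown and 74.98 ± 7.35 CPM in the controls (SD, n = 4 each). The difference was -0.03 on the log2 scale, with a standard error of 0.12. *nhr-62*, known from dietary restriction, stood at 53.4, 51.9, 56.1 and 46.4 CPM in the knockdown, against 54.5, 25.9, 41.2 and 46.9 CPM in the controls. Its log2 fold change of 0.30 (standard error 0.21) was 0.11 without control replicate 2, where it was lowest. *nhr-76*, known from the control of fat loss, differed by 0.07 on the log2 scale (standard error 0.24). *nhr-114*, known from methionine and vitamin B12 metabolism, was tested only as a noncoding transcript with a mean of 11.9 counts (0.61, standard error 0.73). *nhr-176*, a receptor of drug metabolism, averaged 8.06 ± 1.08 CPM in the knockdown and 8.18 ± 0.72 CPM in the controls (SD, n = 4 each). The difference was -0.02 on the log2 scale, with a standard error of 0.19. *nhr-86*, a sensor of bacterial compounds, *nhr-31* and *nhr-8* had 0 counts.

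The most abundant transcripts outside these groups were *nhr-3*, *nhr-45* and *nhr-119*. *nhr-3* stood at 424, 426, 331 and 437 CPM in the knockdown, against 355, 228, 412 and 302 CPM in the controls. The groups overlapped through *ztf-11* KD replicate 3 and control replicate 3, and the log2 difference of 0.32 (standard error 0.18, adjusted p = 0.434 in edgeR) was 0.17 without control replicate 2. *nhr-45* stood at 132, 149, 119 and 161 CPM in the knockdown, against 135, 91.2, 152 and 116 CPM in the controls, a log2 difference of 0.19 (standard error 0.17) and of 0.05 without control replicate 2. *nhr-119* averaged 133 ± 9.06 CPM in the knockdown and 140 ± 21.1 CPM in the controls (SD, n = 4 each).

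The largest fitted differences belonged to transcripts of low level. *nhr-231* (NM_075271), a neighbour of *nhr-170*, stood at 6.43, 6.48, 2.10 and 9.98 CPM in the knockdown, against 1.11, 0.0474, 5.41 and 1.24 CPM in the controls. Control replicate 3 was above *ztf-11* KD replicate 3, and the log2 difference of 1.68 (standard error 0.96) became 2.93 without control replicate 3, when DESeq2 called it (adjusted p = 0.000904). Without control replicate 2 the difference was 1.27. *nhr-169* (log2 fold change 1.52), *nhr-168* (1.37) and *nhr-291* (1.25) had means of 14.8, 10.4 and 17.0 counts per library. At the other end were *nhr-247* (-0.99), *nhr-264* (-0.81) and *nhr-190* (-0.76), with means of 35.3, 17.0 and 27.3 counts. *nhr-264* was at -0.08 without control replicate 4 and at -2.44 without *ztf-11* KD replicate 4. None of these had an unadjusted p under 0.05.

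The *nhr* genes are crowded on chromosome V, which holds 157 of the 254 genes counted, against 32 on IV, 22 on I, 21 on X, 14 on II and 8 on III. Of the 153 transcripts tested, 104 are on V, as are 8 of the 10 with an unadjusted p under 0.05. The share of all chromosome V transcripts at this p was not counted, so the 8 are not read as a concentration there. The median log2 fold change of the 104 was 0.17, where the 2595 transcripts of that chromosome had a median of 0.11. On X the medians were 0.17 for 13 *nhr* transcripts and 0.11 for all, on IV 0.09 for 17 and 0.01 for all, and on I -0.03 for 9 and -0.11 for all. Many stand side by side: taking protein-coding genes in order in the RefSeq table, 137 *nhr* genes formed 44 runs of direct neighbours, 32 of them on V, the longest of 9 genes. The 85 transcripts tested in runs had a median of 0.19, and the 68 outside runs one of 0.08. In each, 5 transcripts had an unadjusted p under 0.05, all higher, where 8.8% of all transcripts tested were higher and 3.99% lower. Most runs are on V and the comparison was not split by chromosome, so runs and chromosome cannot be told apart in it.

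Some of the 44 runs leaned one way, where 69.3% of all *nhr* transcripts tested were above 0. In the run of *nhr-99*, *nhr-55*, *nhr-130*, *nhr-212*, *nhr-211* and *nhr-106*, 5 were tested and 5 were above 0, between 0.28 for *nhr-55* and 0.47 for *nhr-106*, while *nhr-212* had 0 counts. Without control replicate 2 these 5 were smaller, with 0.01 for *nhr-211*, 0.02 for *nhr-99*, 0.13 for *nhr-106*, 0.14 for *nhr-55* and 0.26 for *nhr-130*. In the run from *nhr-56* to *nhr-96*, 5 of 7 were tested and 5 were above 0, the largest being *nhr-134* (0.38, standard error 0.22). Control replicate 2 was the lowest library for *nhr-134*, at 14.4 CPM per kilobase with transcripts summed, against 25.6 to 26.2 in the other controls. In the run that ends with *nhr-136*, 5 were tested and 4 were above 0. In the longest run, from *nhr-185* to *nhr-124*, 4 of 9 were tested, and 1 was above 0. Neighbours of 1 family can share sequence, and only uniquely mapped reads were used, so the counts of near-identical members are uncertain.

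**Figure D5:**
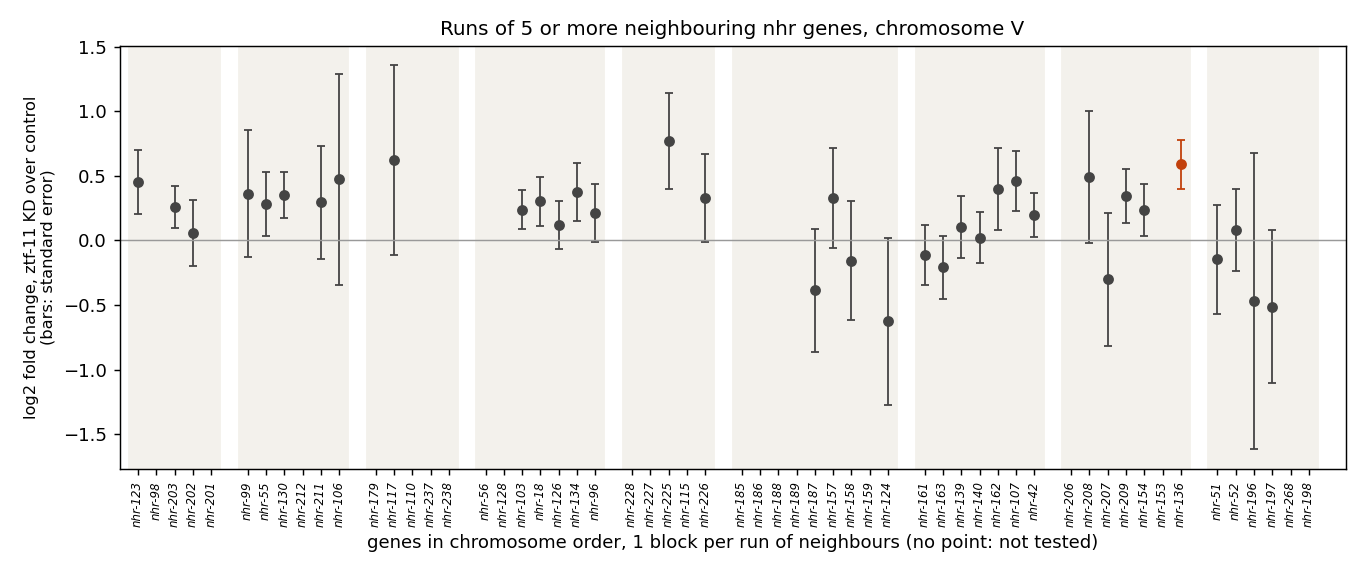
Log2 fold change of ztf-11 KD over control with its standard error (y axis) for nhr genes in 9 runs of 5 or more direct neighbours on chromosome V, in chromosome order within each shaded run. Of 36 genes tested 27 lie above 0, where 106 of all 153 nhr transcripts tested do, and nhr-136, in orange, had an unadjusted p under 0.05.

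Of 5 nuclear receptors with other names, 4 were tested, with 2 above 0, 2 below and 0 at an unadjusted p under 0.05. *sex-1*, which reads the X chromosome dose in early embryos, was the most abundant, at 390, 361, 524 and 323 CPM in the knockdown, against 398, 742, 406 and 466 CPM in the controls. It was highest in control replicate 2, as *nhr-2* was (log2 fold change -0.33, standard error 0.22, and -0.10 without control replicate 2). *daf-12*, the receptor of the steroid hormone dafachronic acid, differed by 0.44 on the log2 scale (standard error 0.29, and by 0.22 without control replicate 2), *odr-7*, which acts in an olfactory neuron, by 0.48 (standard error 0.28) and *fax-1*, which acts in neurons, by -0.08 (standard error 0.31). Of 6 genes listed for dafachronic acid metabolism, 4 were tested, with 3 above 0, 1 below and 0 at an unadjusted p under 0.05, and all 4 had log2 fold changes between -0.01 and 0.17.

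Of 5 partners of these receptors, 4 were matched and 3 tested, with 1 higher and 1 lower at an unadjusted p under 0.05. The lipid regulator *sbp-1* stood at 105, 116, 98.9 and 117 CPM in the knockdown, against 85.0, 81.3, 101 and 86.9 CPM in the controls (log2 fold change 0.30, standard error 0.12, edgeR adjusted p = 0.383), and only control replicate 3 reached into the *ztf-11* KD range. *din-1*, the corepressor of DAF-12, differed by 0.02 on the log2 scale (standard error 0.30), and the acetyltransferase gene *cbp-1*, with 2 transcripts, had a mean of only 14.1 counts (log2 fold change -2.12, standard error 0.93, edgeR adjusted p = 0.387), with all *ztf-11* KD libraries below the controls. Of 11 known targets, 10 were tested, with 5 above 0, 5 below and a median of 0.08, which was -0.03 without control replicate 2. *icl-1*, a glyoxylate cycle enzyme that needs NHR-49, stood at 261, 321, 282 and 281 CPM in the knockdown, against 239, 195, 233 and 251 CPM in the controls. The groups did not overlap, and the log2 fold change was 0.32 (standard error 0.12, edgeR adjusted p = 0.383). The fasting gene *acs-2* (0.56, standard error 0.43, and 0.27 without control replicate 2) and the desaturase genes *fat-5* (-0.04, standard error 0.35), *fat-6* (0.61, standard error 0.64, and 0.30 without control replicate 2) and *fat-7* (-0.82, standard error 0.48) had an unadjusted p above 0.05. DESeq2 called 0 of the genes in these lists.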

How the data were processed

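RNA-seq counts of 8 libraries were used, 4 of *ztf-11* KD and 4 of control embryos, grouped by their titles. The authors trimmed paired-end 100 bp reads with fastx, mapped them to *ce10* with TopHat2 and used uniquely mapped reads for featureCounts. What they deposited is 1 raw count per RefSeq transcript and library. Tool versions, the strand setting and the treatment of reads over several transcripts are not given in the sources used here. Genes with several transcripts, and overlapping or antisense genes are uncertain.

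Identifiers were matched to a RefSeq gene table of WBcel235, used for names, chromosomes and gene order only, and exon lengths came from the Ensembl annotation of WBcel235. Of 282 *nhr* genes in the table, 28 had no counted transcript. No sequence was used. Transcripts kept by filterByExpr (minimum count 10) were TMM-scaled and fitted with edgeR 4.0.16 (R 4.3.3; glmQLFit, robust, and glmQLFTest on the condition), with Benjamini-Hochberg adjustment over all 14328 transcripts and a threshold of 0.1. Standard errors are the log2 fold change over the square root of F. For single values an exact permutation test over 70 assignments was used. A gene with several transcripts is given by the one with the highest mean count on the lists of partners, targets and markers. The p values rest on 4 independent cultures per condition, and counting error is small beside their spread except for rare transcripts. The tests were tried on simulated data.

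The members, lists and tests were chosen with earlier results of these data known. Genes named are the 5 most abundant, the 5 largest increases and decreases, up to 5 each way by p (edgeR at an unadjusted p under 0.05, or DESeq2), and those on lists of receptor roles. The alternatives were DESeq2 1.42.0, its size factors, library totals, no filter, a floor of 10 counts for each library, sums over the transcripts of a gene, a replicate block, a threshold of 0.05 and each library left out. DESeq2 without each library was added after the data were seen.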

Additional observations from a re-analysis of the deposited data

Results flagged for a closer look

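In 64 groups of 4 libraries, those of the 31 named *nhr* transcripts and of *ztf-11*, 2 had a library far from the other 3. Chance gives about 5% of groups, so 2 of 64 is no more than chance gives. Control replicate 2 had 313 CPM of *nhr-2*, where the other controls had 113 to 119 CPM, a gap of 0.974 of the range. *ztf-11* KD replicate 3 had 331 CPM of *nhr-3*, where the other knockdown libraries had 424 to 437 CPM, a gap of 0.878 of the range.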

How the results depend on the processing

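The number of *nhr* transcripts with an adjusted p under 0.1 was 0 in every edgeR fit, 3 in DESeq2 and 0 to 8 in DESeq2 with each library left out (5 without *ztf-11* KD replicate 3, 2 without control replicate 2), while over all transcripts DESeq2 called 68 to 1685 with a library left out. At an unadjusted p under 0.05 edgeR gave 10, DESeq2 17 over all 373, and the edgeR fits without a library 7 to 15. Those higher were 6.54% of the *nhr* transcripts in the main fit, against 8.8% of all transcripts. Without a library they were 3.07% to 8.86%, against 4.41% to 13.4% of all. Those lower were 0 in the main fit, against 3.99% of all. Groups did not overlap for 11 transcripts, for 7 with library totals alone and for 12 to 28 without a library. Over all transcripts 517 lay above and 352 below, and with library totals alone 399 and 508. Without a library 595 to 1957 of all lay above and 452 to 1281 below. The median log2 fold change stayed above 0 in all alternatives (0.09 to 0.18 without a library). *ztf-11* passed in DESeq2 (-2.001), without the filter (-1.98), without control replicate 2 (-1.70, edgeR adjusted p = 0.0505) and without control replicate 3 (-2.12, edgeR adjusted p = 0.0862), and lay between -2.13 and -1.70 in all fits without a library. Of 458 values of named transcripts under the alternatives, 438 kept sign and side of the threshold, 3 passed it (in DESeq2) and 17 changed sign. All 17 came from leaving out a library, with ranges of -0.109 to 0.015 for *nhr-69*, -0.22 to 0.08 for *nhr-85*, -0.12 to 0.023 for *nhr-176*, -0.56 to 0.02 for *nhr-111*, -0.074 to 0.237 for *nhr-76*, -0.064 to 0.2 for *nhr-41*, -0.11 to 0.19 for *nhr-67* and -0.081 to 0.24 for *nhr-239*. The cause was not tested.

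Same-numbered libraries did not deviate together (r of 0.005, -0.30, -0.64 and -0.21 for replicates 1 to 4), and no *ztf-11* KD library correlated best with the control of its own number. With a replicate block 0 *nhr* transcripts passed, and 7 had an unadjusted p under 0.05, all of them higher (4.58%, against 3.8% of all transcripts). The median log2 fold change was 0.14, and *ztf-11* was at -1.93.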

Other observations

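*nhr-46* was the only gene with 2 tested transcripts. NM_068457 stood at 41.9, 34.0, 49.2 and 33.8 CPM in the knockdown, against 48.5, 57.2, 34.3 and 47.2 CPM in the controls. NM_001027894 stood at 6.86, 4.74, 5.60 and 5.42 CPM in the knockdown, against 5.59, 6.05, 5.83 and 6.42 CPM in the controls. The log2 fold changes were -0.24 (standard error 0.19) for NM_068457 and -0.08 (standard error 0.21) for NM_001027894.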
